A study of Mus musculus with 56 samples.

Results

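Gastrocnemius, a calf muscle built mainly of fast fibres, was compared between ZT20 and ZT16 in mice that were fed only by day. ZT is zeitgeber time in hours from lights on, so both times lie in the dark phase, when mice are normally active. Daytime-restricted feeding (DRF) gives food in the light phase, and with food gone at lights off this step covers hours 4 to 8 of a fast. The feeding phase comes from the labels, which do not give the exact hours of food. All 8 libraries of DRF ZT16 and DRF ZT20 were taken by their labels, 4 at each time, out of 56 in the series, and 12024 genes were tested. Every mouse was a female C57BL/6J of 9 weeks kept with lights on for 12 h a day; 7 days of free feeding came before 7 days on a feeding schedule. The mice carried no labelled genetic change and received no labelled agent. For reference stood nighttime-restricted feeding (NRF), with 4 libraries each at ZT16 and ZT20 (the same clock hours, with food) and at ZT4 and ZT8 (the same hours of fast, by day). Whole muscle was used, so fewer cells of a type and less RNA per cell cannot be told apart. The labels do not say that libraries came from separate animals, so p-values rest on a spread between libraries that may be technical. That spread was estimated for each gene within the groups of all 56 libraries, not from the 8 compared alone.

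In muscle as elsewhere, the transcription factors BMAL1 (gene Arntl) and CLOCK, or its relative NPAS2, switch on the genes of their own repressors, the period and cryptochrome proteins. REV-ERB and ROR nuclear receptors close a further loop on Arntl and Npas2, and PAR bZIP factors such as DBP carry the rhythm to output genes. Fasting acts on the same tissue through falling insulin, FoxO factors, glucocorticoids and fatty acids that reach PPAR receptors. Atrophy ligases such as atrogin-1, pyruvate dehydrogenase kinase and lipid-handling genes are the textbook targets of those signals in muscle.

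Levels are CPM, estimated reads per 1000000 of the authors' library size, and steps are differences of mean log2(CPM + 1), ZT20 minus ZT16, from limma with p-values adjusted over all 12024 genes. A gene is called where the adjusted p is under 0.05. On this scale the change of low genes is understated. The 8 libraries held 31917781 to 36183392 recovered reads, of which the 10 most abundant genes took 26.4% to 32.8%. ZT20 replicate 1 stood apart. On the first principal component it lay at -40.5 while the other 7 libraries lay between -13.9 and 23.4, and limma's library weight for it was 0.137 against 0.597 to 1.72. It had the highest summed level of the slow fibre list (9647 CPM, others 461 to 8530) and the highest endothelial marker sum (628 CPM, with ZT16 at 331 to 441). Counts of called genes are therefore given with and without it, and its part in each result beyond that was not tested.

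Between ZT16 and ZT20, 47 genes rose (0.391% of genes tested) and 31 fell (0.258%), 78 in all (0.649%). Steps of the called genes ran from 0.28 to 1.67 upwards and from -0.27 to -1.70 downwards, and the median step of all genes was -0.02. Without ZT20 replicate 1, 217 rose (1.8%) and 142 fell (1.18%), 359 in all (2.99%), and 72 of the 78 called with all libraries were called again in the same direction. In 66 of the 78 the 4 values at ZT20 did not overlap the 4 at ZT16. Over all genes, 2.02% lay wholly higher at ZT20 and 1.9% wholly lower. In 39 of the 78 called genes ZT20 replicate 1 was the ZT20 library nearest to the ZT16 mean. Other single libraries also moved the counts by over 1.5 times. Leaving out ZT16 replicate 2 gave 20 rises and 10 falls, leaving out ZT20 replicate 3 gave 30 and 16, and leaving out ZT20 replicate 2 or 4 gave 28 rises. With the spread estimated from these 8 libraries alone, 6 genes passed (Npas2, Spon2, Dusp10, Arntl, Dbp and Ppp1r10). The plot of named genes by library shows where each library stood. That plot holds only called genes whose groups did not overlap, Npas2, Arntl, Dbp, Per2, Dusp10, Fbxo32 and Tsc22d3 among them. Nothing is therefore read from the separation of the groups in those genes.

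**Figure D1:**
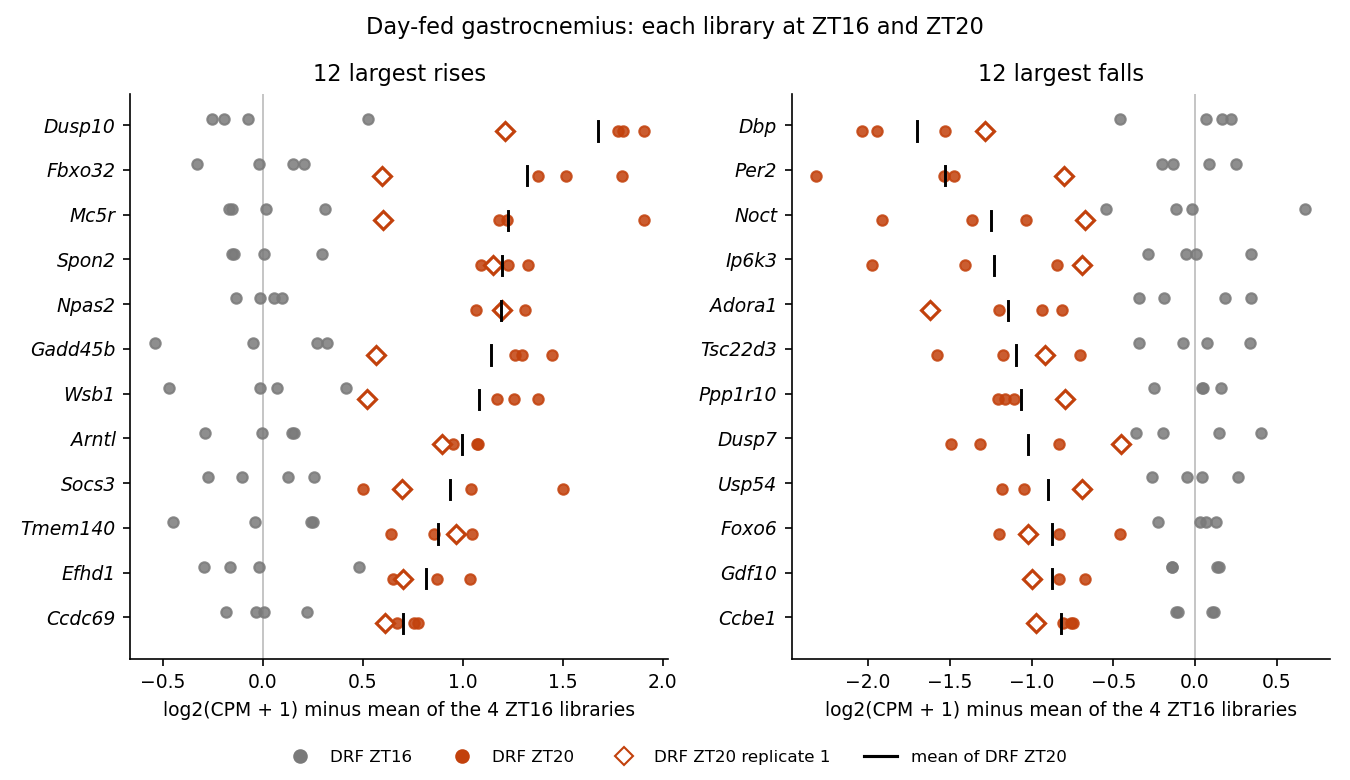
Each library's log2(CPM + 1) minus the mean of the 4 DRF ZT16 libraries, for the 12 largest called rises (left) and falls (right) whose groups did not overlap. Grey points are ZT16, orange points ZT20, the open diamond ZT20 replicate 1 and the black bar the ZT20 mean; the diamond lies nearest to the ZT16 libraries in 13 of the 24 genes.

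Clock genes made up 5 of the 10 called genes that stood in any list, out of 78 called genes in all. The clock list held 19 of the 502 different list genes tested. The lists were chosen with results of these data known, so nothing is read from that share. Of 19 core clock and output genes, all tested, Npas2 and Arntl rose, Dbp, Per2 and Nr1d2 fell, and 14 did not pass, where 0.391% of all genes rose and 0.258% fell. Left without ZT20 replicate 1, the count was 4 risen, with Clock and Nr1d1 added, and 3 fallen, with Per1 in the place of Nr1d2. In that fit 1.8% of all genes rose and 1.18% fell. The list's median step was -0.12, beside -0.02 for all genes.

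DNA before a RefSeq transcript start of 4 of these genes is shown to place the sites through which the clock factors are known to act. Of the 4, Npas2 and Arntl were called in the step, and Ciart and Per3 were not. Windows of Dbp, Per2 and Nr1d2, which were called, are not shown. No rule set which clock genes were shown, so nothing about the step is read from their sites. The sequences are RefSeq promoter windows on GRCm38.p6 of the lowest listed window of each gene, up to 250 bases before that start, which can lie inside the gene as the annotation bounds it (as for Arntl and Npas2), and ended at the first base that GENCODE annotates as untranslated, read 5′ to 3′ on the gene's strand. Capitals mark matches on either strand to CACGTG (the E-box of CLOCK and BMAL1), TTANGTAA (the D-box of DBP and its relatives, N being any base) or GGTCA (the half-site of REV-ERB and ROR receptors). Npas2 lies at chr1:39194022-39194211 (plus strand, 190 bases), Arntl at chr7:113207215-113207464 (plus, 250 bases), Ciart at chr3:95882252-95882478 (minus, 227 bases) and Per3 at chr4:151044666-151044915 (minus, 250 bases).
Npas2: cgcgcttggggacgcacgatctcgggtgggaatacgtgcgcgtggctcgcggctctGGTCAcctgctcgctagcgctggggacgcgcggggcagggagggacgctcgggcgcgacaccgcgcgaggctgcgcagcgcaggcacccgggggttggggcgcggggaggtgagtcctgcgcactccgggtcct
Arntl: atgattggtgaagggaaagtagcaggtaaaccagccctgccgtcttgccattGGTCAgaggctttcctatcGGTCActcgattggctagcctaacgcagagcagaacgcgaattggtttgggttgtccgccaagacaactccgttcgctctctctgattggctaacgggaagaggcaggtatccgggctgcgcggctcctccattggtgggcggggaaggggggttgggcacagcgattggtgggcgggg
Ciart: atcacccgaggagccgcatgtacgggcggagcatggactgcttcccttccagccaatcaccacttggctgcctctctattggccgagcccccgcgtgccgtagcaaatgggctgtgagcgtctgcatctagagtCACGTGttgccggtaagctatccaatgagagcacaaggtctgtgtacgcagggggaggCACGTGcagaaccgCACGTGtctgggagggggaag
Per3: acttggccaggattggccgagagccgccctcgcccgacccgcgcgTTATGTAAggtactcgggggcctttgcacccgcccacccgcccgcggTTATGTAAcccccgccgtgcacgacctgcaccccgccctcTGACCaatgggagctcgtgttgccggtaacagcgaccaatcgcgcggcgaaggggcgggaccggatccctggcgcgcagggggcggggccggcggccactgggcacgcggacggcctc
The Ciart window holds 3 E-boxes, the Per3 window 2 D-boxes and 1 half-site, the Arntl window 2 half-sites and the Npas2 window 1. Among 32851 RefSeq windows of 250 bases before a start, 6.02% hold an E-box and 0.0609% hold 3 or more. For the D-box 2.06% hold 1 or more and 0.0731% hold 2 or more, and for the half-site 35.2% and 8.16%. Those windows were not ended at untranslated bases, unlike the windows shown. Such a match describes letters and is no measured binding.

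Npas2 (gene 18143, chr1:39193702-39363240), the CLOCK relative of the activator arm, stood at 0.746, 0.487, 0.615 and 0.694 CPM in ZT16 replicates 1 to 4 and at 2.74, 2.72, 3.05 and 2.42 at ZT20. Every ZT20 library was above every ZT16 library, replicate 1 included, as the selection of this gene for the plot by library required. The step was 1.19 (95% interval 0.87 to 1.51, adjusted p = 1.78e-05), and mean CPM was 4.29-fold higher. Arntl (gene 11865, chr7:113178471-113314126) read 29.8, 21.8, 30.04 and 26.8 CPM at ZT16 and 50.9, 52.9, 57.6 and 57.7 at ZT20. Its mean went 2.02-fold up from 27.1 ± 3.85 to 54.8 ± 3.43 CPM (SD, n = 4 each), with a step of 1.00 (interval 0.58 to 1.42, adjusted p = 0.00828). Both groups were tight in this gene, and apart, as its selection required. The call was lost without ZT16 replicate 2 (adjusted p = 0.0775). Clock itself, the partner of BMAL1, was 17.9 to 27.0 CPM at ZT16 and 37.0 to 40.0 in 3 of the ZT20 libraries, with replicate 1 at 19.5. With all libraries its adjusted p was 0.165, and without replicate 1 it was 0.0108 at a step of 0.80.

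On the falling side, Dbp (gene 13170, chr7:45705100-45710203), an output factor that binds D-boxes, read 29.7, 48.05, 46.3 and 43.1 CPM at ZT16 and 16.3, 13.6, 9.24 and 9.92 at ZT20. This was the largest called fall of any gene, a step of -1.70 (interval -2.33 to -1.06, adjusted p = 0.0027). Dbp has decimal estimated counts, so some of its reads were shared with other genes and its level is uncertain. Per2 (gene 18627, chr1:91415977-91459351), a period repressor, read 25.9, 34.1, 24.6 and 30.3 CPM at ZT16 and 15.9, 9.17, 4.91 and 9.63 at ZT20. The 2 groups lay apart, as the selection of Per2 required. Replicate 1 was the highest of the ZT20 libraries, and the Per2 step was -1.53 (interval -2.22 to -0.84, adjusted p = 0.0167). It did not pass when ZT20 replicate 3 (adjusted p = 0.124) or ZT16 replicate 2 (0.0925) was left out, nor on the log2 scale of the deposited values (0.248). Nr1d2, which encodes REV-ERB beta, read 117, 115, 107 and 132 CPM at ZT16 and 54.2, 92.7, 80.4 and 86.2 at ZT20 (step -0.61, adjusted p = 0.0265). Here replicate 1 was the lowest ZT20 library, and without it the adjusted p was 0.0692. The call was also lost without ZT16 replicate 1, 2 or 4 (0.0502, 0.0836 and 0.103) or ZT20 replicate 3 (0.0525), and with total-count scaling (0.0588), quantile scaling (0.0522) or the deposited values on a log2 scale (0.0525).

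The other period genes and outputs had lower means at ZT20 but did not pass. Per1, which glucocorticoids also induce, read 36.2, 66.0, 53.5 and 51.3 CPM at ZT16 and 28.0, 8.54, 15.9 and 44.7 at ZT20 (step -1.26, adjusted p = 0.0623). The ZT20 libraries spread widely and replicate 4 reached into the ZT16 range. Per1 passed when ZT20 replicate 1 (adjusted p = 0.0248) or ZT20 replicate 4 (0.0111) was left out. Per3 went from 44.9 ± 7.08 to 23.98 ± 4.59 CPM with no overlap (adjusted p = 0.125), and Hlf and Tef, relatives of Dbp, had steps of -0.69 and -0.44 (adjusted p = 0.0531 and 0.0936). Ciart, an inhibitor of CLOCK and BMAL1, was already low at 1.70 ± 0.491 CPM at ZT16 and stood at 0.813 ± 0.279 at ZT20 (adjusted p = 0.38). Nr1d1, with decimal counts, read 142, 99.4 and 98.8 CPM in ZT20 replicates 2 to 4 against 40.3 in replicate 1 and 43.0 to 70.4 at ZT16 (adjusted p = 0.442, and 0.0317 without replicate 1). The cryptochromes moved little, Cry1 by 0.17 and Cry2 by -0.13, as did Bhlhe40 (-0.12) and Bhlhe41 (0.17). Nfil3 and Rora had steps of 0.52 and 0.01, neither of them called.

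**Figure D2:**
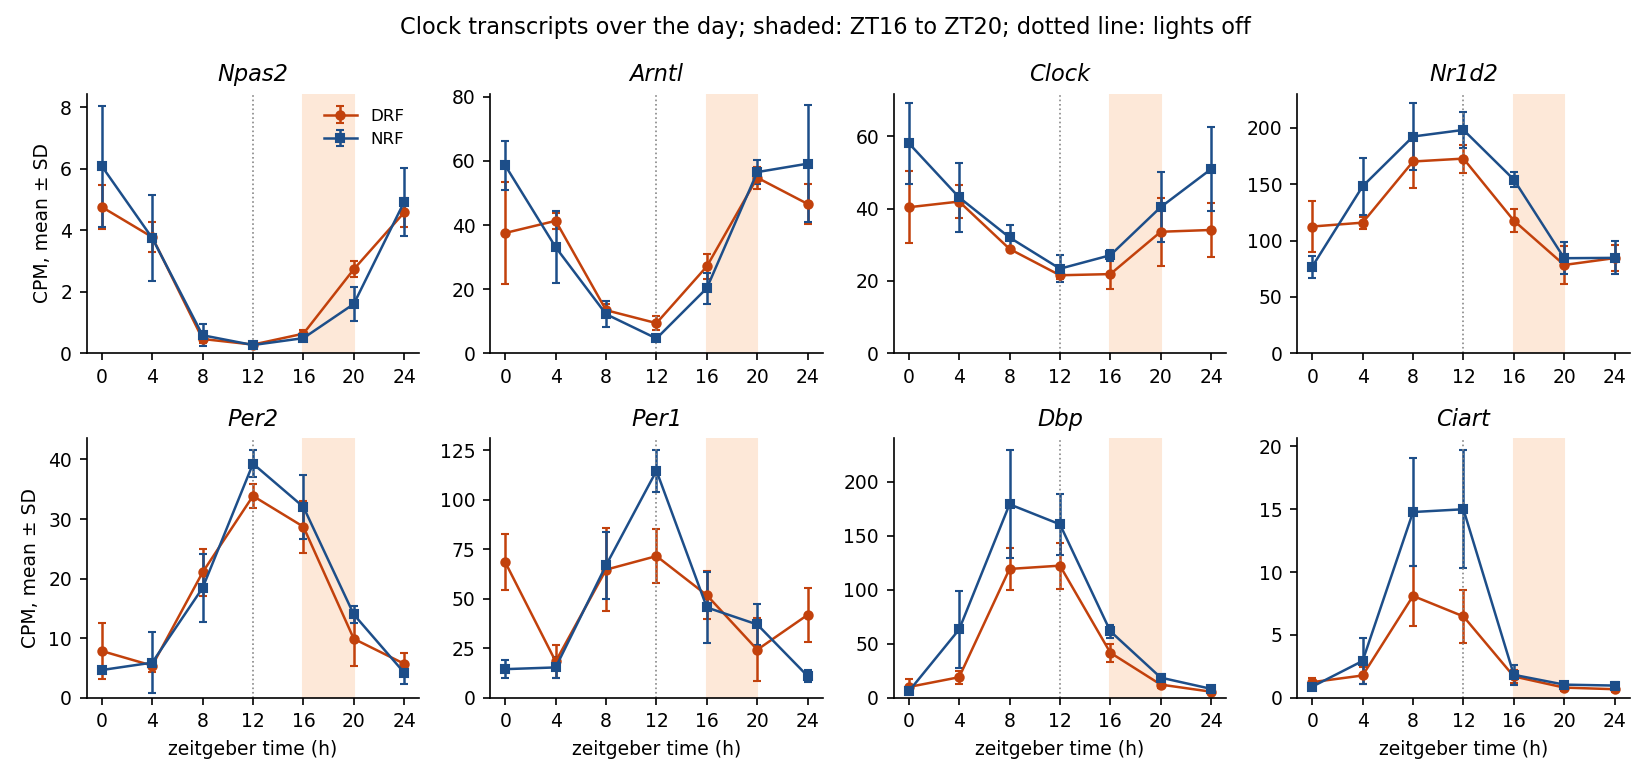
CPM (mean ± SD, n = 4) of 8 clock genes against zeitgeber time in DRF (orange circles) and NRF (blue squares), with ZT16 to ZT20 shaded and lights off dotted. In the shaded interval Npas2 and Arntl rose and Per2, Dbp and Nr1d2 fell in DRF, and the NRF means moved in the same direction.

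The shaded interval fell on the flank of these rhythms. Set side by side in DRF, Npas2 averaged 0.282 CPM at ZT12, 0.635 at ZT16, 2.73 at ZT20 and 4.57 at ZT24, whereas Arntl went from 9.39 through 27.1 and 54.8 to 46.6. Dbp averaged 122, 41.8, 12.3 and 5.66 CPM and Per2 averaged 33.9, 28.7, 9.91 and 5.71 at those 4 times. So the means of Npas2, Dbp and Per2 went on in one direction over all 3 intervals, while the highest Arntl mean of the 4 was at ZT20. Neighbouring steps share the ZT16 or ZT20 libraries with this one and were not tested.

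Dusp10 (gene 63953, chr1:184034381-184075636), a phosphatase of p38 and JNK kinases, had the largest called rise. It read 26.5, 15.7, 15.0 and 17.2 CPM at ZT16 and 43.3, 70.7, 65.8 and 64.6 at ZT20 (step 1.67, interval 1.05 to 2.29, adjusted p = 0.00252). All ZT20 libraries lay above the ZT16 libraries, as the selection of Dusp10 required. The Dusp10 mean was 51.9 CPM at ZT12 and 39.4 at ZT24, so ZT16 was the lowest and ZT20 the highest of these 4 times. Dusp7, a phosphatase of ERK kinases, went the other way, from 33.6, 57.6, 37.8 and 48.2 CPM to 31.4, 16.8, 14.7 and 23.95 (step -1.02, adjusted p = 0.00828). ZT20 replicate 1 came close to the lowest ZT16 library. The call was lost without ZT16 replicate 2 (adjusted p = 0.0925) or ZT20 replicate 2 or 3 (0.0509 and 0.0755). Gadd45b, a stress-induced activator of the p38 pathway, rose from 13.7 ± 3.70 to 31.3 ± 7.72 CPM (step 1.14, adjusted p = 0.039). Its call was lost in 5 of the 8 fits that left out 1 library, without ZT16 replicate 1 or 2 (adjusted p = 0.074 and 0.228) or ZT20 replicate 2, 3 or 4 (0.119, 0.148 and 0.11), and also on the log2 scale of the deposited values (0.0693) or with no filter (0.0535).

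Mc5r, a melanocortin receptor, read 4.99, 5.05, 7.35 and 5.81 CPM at ZT16 and 9.20, 24.2, 14.7 and 14.3 at ZT20 (step 1.23, adjusted p = 0.00116). Spon2, a secreted matrix protein, rose from 1.96 ± 0.449 to 5.74 ± 0.479 CPM (step 1.198, adjusted p = 0.00432), with ZT20 libraries between 5.25 and 6.35. Both genes passed with any 1 of the 8 libraries left out. Socs3, a cytokine-induced inhibitor of cytokine receptors, read 2.86 ± 0.628 and 6.58 ± 2.40 CPM (step 0.93, adjusted p = 0.0362). Socs3 lost its call without ZT16 replicate 2, 3 or 4 (0.176, 0.0801 and 0.054) or ZT20 replicate 3 or 4 (0.213 and 0.107), and with total-count scaling (0.108). Adora1, the adenosine A1 receptor (decimal counts), fell from 11.2 ± 2.67 to 4.53 ± 1.28 CPM (step -1.14, adjusted p = 0.00694). Gdf10, of the transforming growth factor beta family, fell from 11.3 ± 1.39 to 5.72 ± 0.749 CPM (step -0.88, adjusted p = 0.0338) and Ccbe1, a secreted protein of lymphatic vessel growth, from 3.05 ± 0.357 to 1.29 ± 0.162 CPM (step -0.82, adjusted p = 0.00946). The Ccbe1 call was lost without ZT16 replicate 2 (0.0576), and that of Gdf10 without ZT16 replicate 2 or 4 (0.146 and 0.103) or ZT20 replicate 2 or 4 (0.0746 and 0.107). Total-count scaling ended both calls (0.0703 for Ccbe1 and 0.109 for Gdf10), and Gdf10 also failed on the log2 scale of the deposited values (0.163) and with a pseudocount of 0.25 (0.0531). Spon2 failed on that deposited scale (0.079).

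Noct, which encodes nocturnin, a rhythmic NADP(H) phosphatase, read 34.0, 80.4, 46.1 and 49.3 CPM at ZT16 and 31.0, 18.8, 12.5 and 23.9 at ZT20 (step -1.25, adjusted p = 0.0012). Ip6k3, an inositol phosphate kinase of muscle, read 73.8, 115, 90.6 and 86.9 and then 55.6, 22.3, 33.5 and 49.97 CPM (step -1.23, adjusted p = 0.00116). In both, ZT20 replicate 1 was the highest of its group. Ppp1r10, a nuclear regulator of protein phosphatase 1, fell from 36.8 ± 4.38 to 17.1 ± 2.46 CPM (step -1.07, adjusted p = 0.0069). Usp54 had the smallest p among the falls, 17.0 ± 2.72 against 8.70 ± 1.68 CPM (step -0.90, adjusted p = 1.23e-04), and all 4 of these genes passed with any 1 library left out. Among the rises, Wsb1, a substrate receptor of a ubiquitin ligase, went from 11.5 ± 3.05 to 25.4 ± 6.21 CPM (step 1.08, adjusted p = 0.00432). Efhd1, a calcium-binding mitochondrial protein, Ccdc69 and Tmem140 (decimal counts) had steps of 0.81, 0.70 and 0.88, with adjusted p = 0.0314, 0.00694 and 0.0362. Ccdc69 passed with any 1 library left out. Tmem140 did not without ZT16 replicate 2 or 4 (0.13 and 0.173) or ZT20 replicate 2 or 4 (0.0811 and 0.118), nor Efhd1 without ZT16 replicate 2, 3 or 4 (0.175, 0.0835 and 0.0723) or ZT20 replicate 3 or 4 (0.131 and 0.0867). With total-count scaling neither passed (0.0593 for Tmem140 and 0.143 for Efhd1).

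Of 22 FoxO targets and atrophy genes, all tested, 1 rose, none fell and 21 did not pass (median 0.00, all genes -0.02), where 0.649% of all genes were called. Fbxo32 (gene 67731, chr15:58175879-58214892), the muscle ubiquitin ligase atrogin-1, read 402, 417, 357 and 287 CPM at ZT16 and 547, 1035, 942 and 1259 at ZT20. All ZT20 libraries lay above ZT16, as the selection of Fbxo32 required, replicate 1 by far the least. The step was 1.32 (interval 0.71 to 1.93, adjusted p = 0.0201). Fbxo32 was not called without ZT16 replicate 4 (adjusted p = 0.0818) or ZT20 replicate 2, 3 or 4 (0.0746, 0.0651 and 0.107), and on the log2 scale of the deposited values (0.0693). Trim63, the partner ligase MuRF1, read 232, 304, 303 and 235 CPM and then 353, 382, 396 and 698 (step 0.72, adjusted p = 0.101). The groups lay apart, and replicate 4 stood far above the others at ZT20. The factors themselves had lower means, Foxo1 60.6 ± 24.9 against 31.2 ± 9.38 CPM (adjusted p = 0.0658) and Foxo3 67.0 ± 12.0 against 49.0 ± 6.99 (adjusted p = 0.0706). With ZT20 replicate 1 left out, Fbxo32 and Trim63 rose and Foxo1 and Foxo3 fell, where 1.8% of all genes rose and 1.18% fell. Foxo1 also passed without ZT20 replicate 4 (adjusted p = 0.0408). Foxo6, a family member outside that list, fell from 14.1 ± 1.56 to 7.34 ± 1.904 CPM (step -0.88, adjusted p = 0.0338). It was not called without ZT16 replicate 1, 2 or 3 (0.0672, 0.139 and 0.0727) or ZT20 replicate 3 or 4 (0.0755 and 0.135), and on that deposited scale (0.0682).

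Of 20 tested members of 22 glucocorticoid-responsive genes, 1 rose, 1 fell and 18 did not pass, with a median of -0.14, where 0.391% of all genes rose and 0.258% fell. The riser was Fbxo32. Tsc22d3 (gene 14605, chrX:140539528-140600522), which encodes GILZ, a direct target of the glucocorticoid receptor, read 284, 379.9, 455 and 343 CPM at ZT16 and 190.1, 120.2, 159 and 221 at ZT20. Its groups lay apart, as its selection required. The step was -1.09 (interval -1.57 to -0.61, adjusted p = 0.0122), and the call was lost without ZT16 replicate 2 or 3 (0.0576 and 0.0548) or ZT20 replicate 2 (0.0868). Per1 belongs to the same list. The list's counts were 2 risen and 2 fallen when ZT20 replicate 1 was left out, where 1.8% of all genes rose and 1.18% fell.

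Fuel genes did not pass in this step, although some had large mean differences. Of 18 PPAR fasting targets 0 were called at adjusted p under 0.05 (median 0.30, and 13 above 0 where 42.6% of all genes were). The median was 0.08 without ZT20 replicate 1. Pdk4 (gene 27273, chr6:5483351-5496278), the kinase that restrains pyruvate dehydrogenase, read 339.6, 681, 964 and 126 CPM at ZT16 and 729.8, 1404, 759 and 1565 at ZT20. The means differed 2.11-fold, yet ZT16 replicate 3 was above 2 of the ZT20 libraries, and the step of 1.35 had an interval of -0.17 to 2.88 (adjusted p = 0.584). Angptl4, an inhibitor of lipoprotein lipase, ranged from 1.49 to 15.7 CPM at ZT16 and from 5.96 to 31.5 at ZT20 (step 1.29, adjusted p = 0.399). Cpt1a, of mitochondrial fatty acid import, and Mlycd, which removes its inhibitor malonyl-CoA, had steps of 0.51 and 0.49 (adjusted p = 0.382 and 0.387). Ppara, the receptor gene, ran from 13.7 to 108 CPM within ZT16 and from 9.42 to 57.2 within ZT20, with its top value in the 2 libraries whose slow fibre sum was the highest of each group.

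Fatty acid and triglyceride synthesis had 15 of 18 steps below 0, beside 57.4% of all genes, and the second lowest list median, -0.48, with 0 called. Thrsp, an inducer of lipogenesis, read 81.2, 45.6, 23.2 and 55.0 CPM and then 13.8, 22.3, 22.1 and 23.2 (step -1.19, adjusted p = 0.137), and ZT16 replicate 3 overlapped with ZT20. Without that ZT16 library Thrsp passed (step -1.51, adjusted p = 0.0455). Acly, which makes cytosolic acetyl-CoA, ranged from 27.8 to 138 CPM at ZT16 and from 22.8 to 36.0 at ZT20. Adipocyte markers, none of them in the synthesis list, summed to 5449 to 6927 CPM at ZT16 and 4071 to 7438 at ZT20, the lowest in ZT20 replicate 1. Of the 10 adipocyte markers 9 were tested, 0 were called, none was at 0 and the median step was -0.39, and their part in these values was not tested. Of 20 cholesterol synthesis genes tested, none was called, and without ZT20 replicate 1 Pmvk fell (adjusted p = 0.049).

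Of 29 genes of glucose uptake, glycolysis and glycogen none was called, with a median of -0.03. Pfkfb3 (gene 170768, chr2:11471430-11554071), whose product raises the glycolytic activator fructose 2,6-bisphosphate, read 91.6, 87.7, 279 and 79.8 CPM at ZT16 and 84.9, 887, 372 and 348 at ZT20. Replicate 3 was high within ZT16 and replicate 1 low within ZT20, and the step of 1.43 had an adjusted p of 0.135. Leaving out ZT20 replicate 1 gave 2.06 with an adjusted p of 0.00422, and leaving out ZT16 replicate 3 gave 1.86 with 0.0364. Its relative Pfkfb4 had a step of -0.64 (adjusted p = 0.131). Ppp1r3c, a scaffold of glycogen synthesis, averaged 1147 ± 338 and 666 ± 229 CPM (adjusted p = 0.235), and Hk2, the insulin-responsive hexokinase, 334 ± 67.6 and 267 ± 67.3 (adjusted p = 0.379, and 0.0477 without ZT20 replicate 1).

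**Figure D3:**
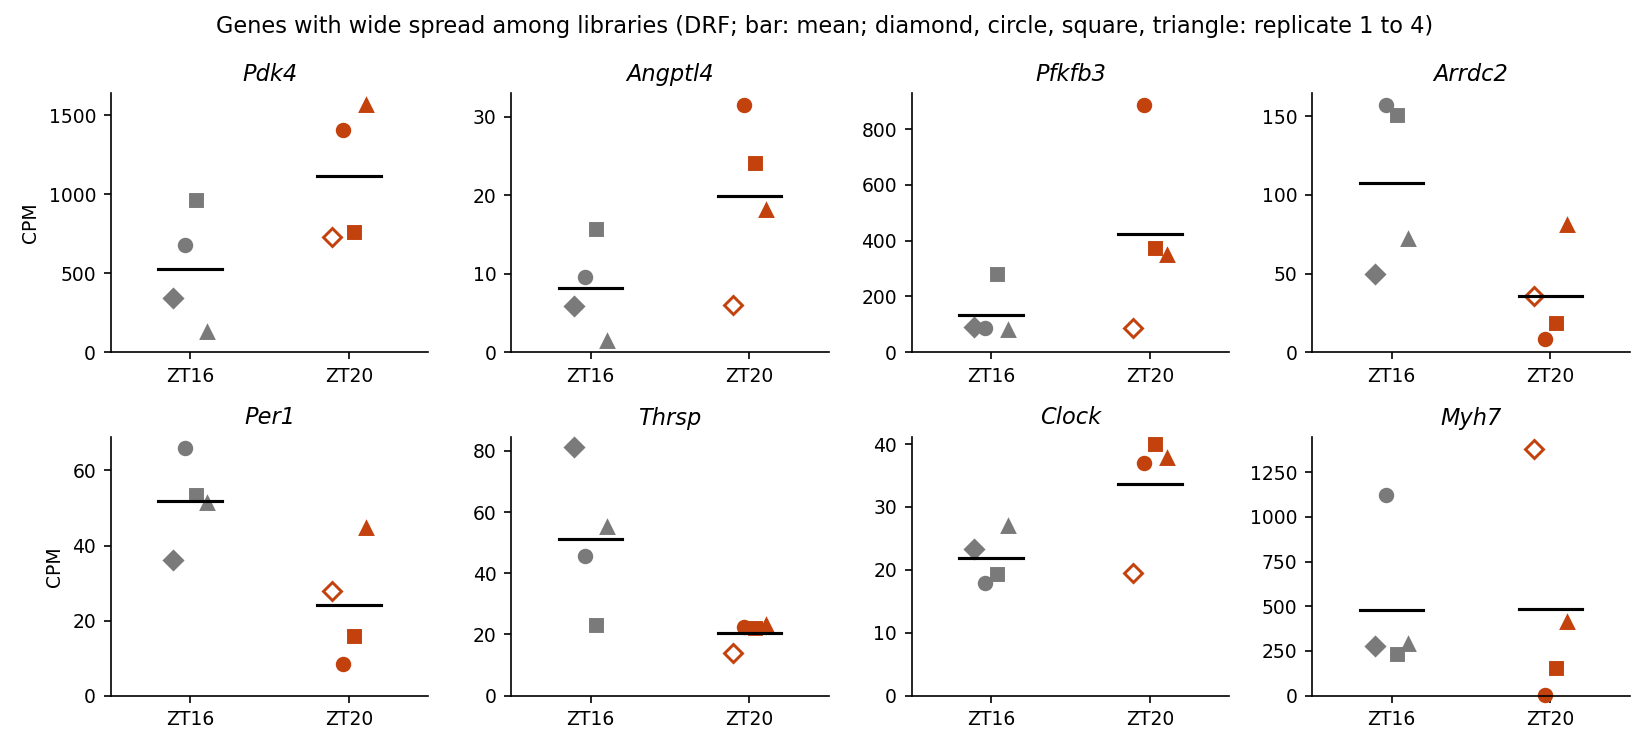
CPM of 8 genes in each DRF library at ZT16 (grey) and ZT20 (orange), with bars at the mean and 1 marker shape per replicate number, the open diamond being ZT20 replicate 1. None was called with all libraries; Pfkfb3, Per1, Clock and Arrdc2 passed without ZT20 replicate 1, and Myh7 ran from 2.22 to 1377 CPM within ZT20.

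Alpha-arrestins, adaptors that trim surface transporters and receptors, gave wide values. Arrdc2 read 49.9, 157, 151 and 72.0 CPM at ZT16 and 35.6, 8.50, 18.7 and 80.7 at ZT20, with ZT20 replicate 4 above 2 of the ZT16 libraries (step -1.83, adjusted p = 0.0802). It passed without ZT20 replicate 1 (0.0405) or ZT20 replicate 4 (0.0178). Gadd45b, a rise, was the 1 gene called of 15 in the list of alpha-arrestins and growth arrest genes, where 0.391% of all genes rose. Among 28 tested genes of amino acid transport and breakdown 1 fell, where 0.258% of all genes did. Of the 28 steps 24 lay below 0, beside 57.4% of all genes (median -0.12, and -0.18 without ZT20 replicate 1). The call was Slc7a8, a transporter of neutral amino acids, at 22.9, 59.8, 36.2 and 54.2 CPM and then 21.2, 15.2, 16.9 and 29.2 (step -0.99, adjusted p = 0.0069). Its groups overlapped through ZT16 replicate 1, and the call was lost without ZT16 replicate 2 (0.0939). Slc43a1, a transporter of large neutral amino acids, had a step of 0.84 (adjusted p = 0.0531, 0.0095 without ZT20 replicate 1 and 0.0221 without ZT16 replicate 3) and Glul, glutamine synthetase, one of -0.70 (adjusted p = 0.136, and 0.0241).

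Temperature-responsive RNA-binding genes had 11 of 12 steps above 0, beside 42.6% of all genes, with 1 called upwards, where 0.391% of all genes were. Their median was 0.16, and 0.26 without ZT20 replicate 1. Srsf5 (gene 20384, chr12:80945495-80950507), a splicing factor, read 35.9, 34.7, 44.0 and 54.6 CPM at ZT16 and 52.7, 105, 99.2 and 93.5 at ZT20 (step 1.01, adjusted p = 7.67e-04). Only ZT20 replicate 1 reached into the ZT16 range. Ddx5, an RNA helicase, was 252 to 317 CPM at ZT16 and 371 to 377 in ZT20 replicates 2 to 4, with replicate 1 at 232 (adjusted p = 0.303, and 0.0115 without it). The known cold-inducible genes of the list, Cirbp and Rbm3, had steps of 0.26 and 0.03. Heat shock and chaperone genes had 20 of 21 steps below 0, beside 57.4% of all genes (median -0.14, or -0.23 without ZT20 replicate 1, none called), and Dnajb1, a cochaperone, averaged 11.8 ± 1.18 and 7.38 ± 1.82 CPM (adjusted p = 0.126, and 0.0352 without ZT20 replicate 1). Immediate early genes had 16 of 25 above 0, beside 42.6% of all genes, a median of 0.19 (0.03 without ZT20 replicate 1) and none called, Fos running from 2.59 to 9.73 and from 4.12 to 15.3 CPM, Junb at a step of 0.66 (adjusted p = 0.127) and Atf3 at 1.12 (adjusted p = 0.336).

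Of all 28 lists, 6 had a called member and 22 had none, and 10 of the 502 different list genes tested were called (1.99%, beside 0.649% of all genes). Without ZT20 replicate 1, 11 lists had a called member and 25 list genes were called (4.98%, beside 2.99%). Since the lists were chosen with results of these data known, nothing is read from these shares. The lists without a call with all libraries included 25 oxidative phosphorylation genes (median -0.09), 28 of fatty acid uptake and oxidation (-0.09), 23 of autophagy (0.01), 22 of insulin signalling (-0.09), 24 of ribosome assembly (-0.02) and 18 of endoplasmic reticulum stress (-0.04). Leaving out ZT20 replicate 1 moved the oxidative phosphorylation and fatty acid medians to -0.26 each, that of insulin signalling to -0.01, of autophagy to -0.01 and of endoplasmic reticulum stress to -0.06. In insulin signalling Pik3r1, a subunit of PI 3-kinase, had a step of -0.61 (adjusted p = 0.287), and Akt1, a kinase that insulin activates, fell without ZT20 replicate 1 (-0.30, adjusted p = 0.0473). The same was so for Mpc1, a mitochondrial pyruvate carrier subunit (-0.32, adjusted p = 0.0357). Lipid droplet genes had none called, with G0s2, an inhibitor of lipolysis, at -0.61 (adjusted p = 0.736).

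**Figure D4:**
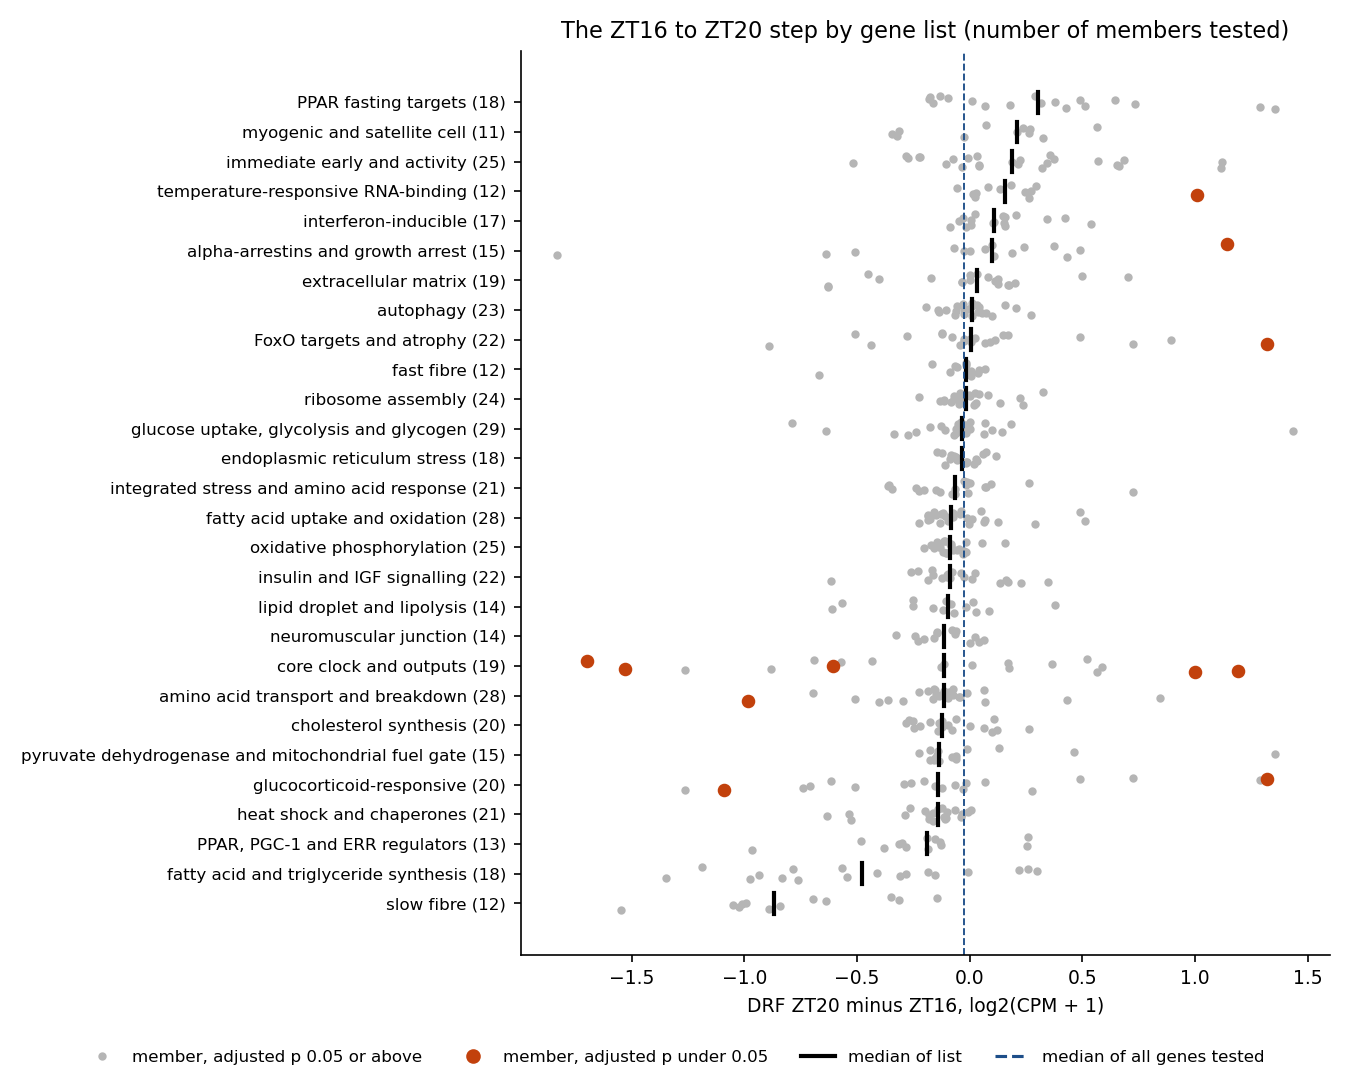
DRF ZT20 minus ZT16 in log2(CPM + 1) for the members of 28 gene lists (small grey points not called, orange points called at adjusted p under 0.05), with the median of each list (black bar) and of all genes tested (dashed line, -0.02). Called members were few in each list, the core clock list having 5.

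Slow fibre genes had the lowest list median, -0.87, with all 12 steps below 0 and 0 called, and the median was -1.70 without ZT20 replicate 1. Their summed level was 5356, 8530, 1624 and 1984 CPM at ZT16 and 9647, 461, 1231 and 2750 at ZT20. So the highest and the lowest of the 8 libraries were both at ZT20. Myh7, the slow myosin (decimal counts), read 276, 1119, 232 and 289 CPM at ZT16 and 1377, 2.22, 155 and 413 at ZT20, and Myh2 and Myh1, intermediate myosins with decimal counts, had steps of -0.89 and -0.67 (adjusted p = 0.776 and 0.786). Muscle fibre markers summed to 218906 to 275269 CPM at ZT16 and 195478 to 287024 at ZT20, with the lowest in ZT20 replicate 1. Of the 13 cell types 11 had a tested marker, neutrophils only 1, and no tested marker was called. The sums at ZT16 and ZT20 were 109 to 163 and 127 to 289 CPM for macrophages, 1593 to 1797 and 1397 to 1819 for fibro-adipogenic cells, 219 to 644 and 107 to 606 for Schwann cells, and 464 to 764 and 307 to 555 for tendon. Lymphocyte and skin markers summed to at most 1.43 and 1.26 CPM, with Krt14, Krt5 and Krt1, the defining keratins of skin, at 0 in the 8 libraries.

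To ask whether the step depended on food at the same clock hours, it was set against NRF ZT16 to ZT20. No gene differed at an adjusted p under 0.05 (0 of 12024 by limma, 0% in either direction), while 1229 had an unadjusted p under 0.05. The lack of calls does not show that the steps were equal. In this contrast NRF ZT20 replicate 4 also had a low library weight, 0.238. The smallest adjusted p was 0.283, shared among others by Srsf5, Brd9, Nkrf, Fcf1, Srsf6 and Mettl25, whose step was higher in DRF, and AU022252 (decimal counts), Ptpn11, Nacc2, Smurf1 and Heatr5a, whose step was lower. When ZT20 replicate 1 was left out, 24 genes differed upwards (0.2%) and 7 downwards (0.0582%), Srsf5 among them (adjusted p = 0.004) with Srsf6, another splicing factor (0.0495), Nkrf (0.0399) and Ddx5 (0.0399). With all libraries the Srsf5 difference was 1.07 (95% interval 0.59 to 1.54), and its NRF means were 65.7 ± 7.71 and 65.7 ± 20.3 CPM.

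Most called genes moved the same way in NRF over those hours. Of the 47 rises 42 had an NRF step above 0, beside 51.9% of all genes, and of the 31 falls 29 had one below 0, beside 48.1%. NRF itself had 113 genes called upwards (0.94%) and 35 downwards (0.291%). Of the DRF calls 26.9% were also called in NRF in the same direction, and of the NRF calls 14.2% were called in DRF. Dbp averaged 61.7 ± 6.27 and 18.7 ± 3.07 CPM in NRF, so the steps were -1.70 and -1.68 and their difference -0.02 (interval -0.92 to 0.88). Arntl had steps of 1.00 and 1.46 (difference -0.46, interval -1.06 to 0.14), Npas2 1.19 and 0.78 (difference 0.41, interval -0.04 to 0.86), and Per2 -1.53 and -1.13 (difference -0.40, interval -1.37 to 0.57). Fbxo32 averaged 157 ± 75.4 and 528 ± 203 CPM in NRF, a step of 1.78 against 1.32 (difference -0.46, interval -1.32 to 0.40). Each of these intervals spans 0. Of the 24 named genes 7 had an interval that excludes 0, before any adjustment: Socs3 (0.54 to 1.85), Spon2 (0.34 to 1.66), Mc5r (0.26 to 1.45) and Ccdc69 (0.28 to 1.10) upwards, and Tsc22d3 (-1.54 to -0.18), Ip6k3 (-1.33 to -0.12) and Usp54 (-0.94 to -0.19) downwards. Over all 12024 genes, 1229 had an unadjusted p under 0.05 in this test. The 24 were chosen by the DRF step that enters the difference, so nothing is read from the 7. Among the 24 named genes the difference ran from -0.86 (Tsc22d3, which had a step of -0.23 in NRF) to 1.196 (Socs3, at -0.26 in NRF).

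**Figure D5:**
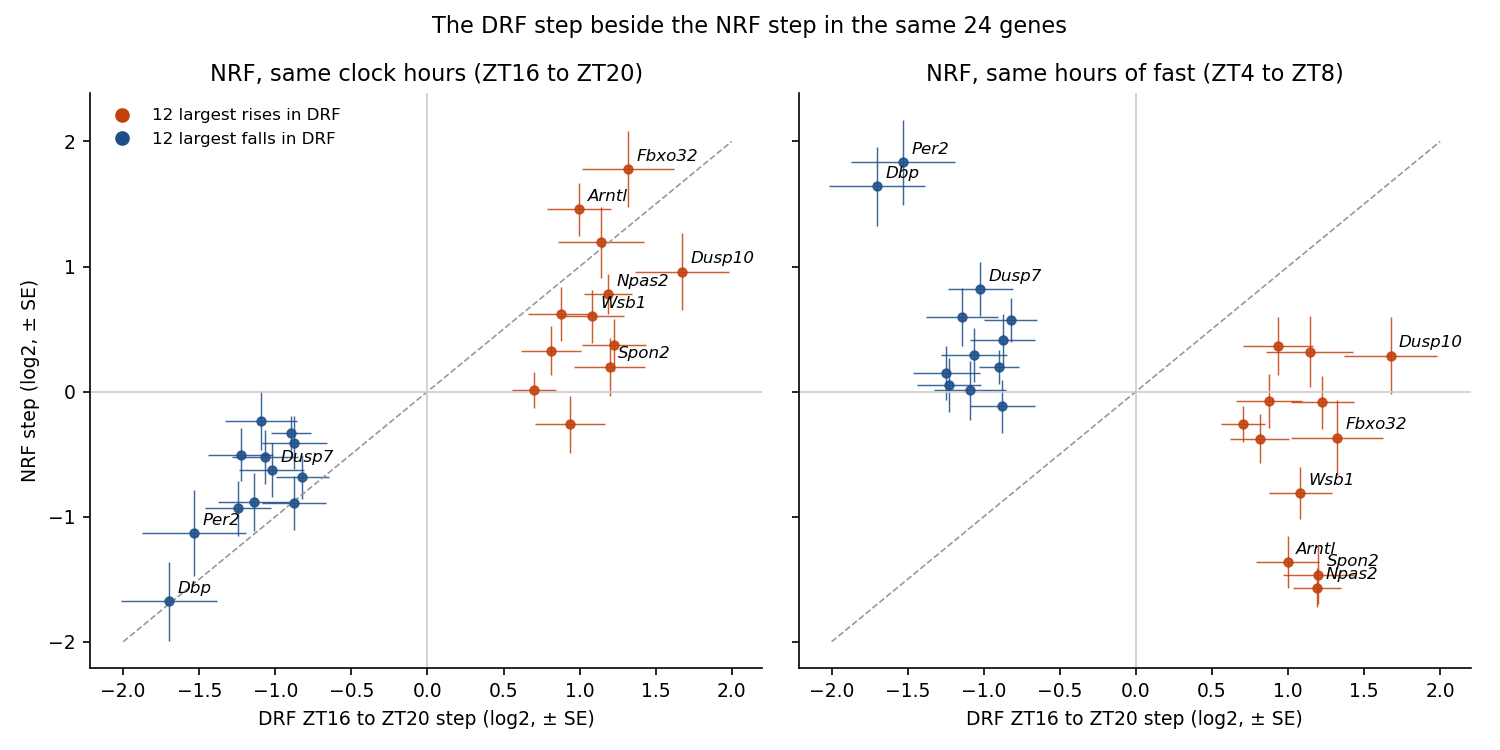
NRF step against DRF ZT16 to ZT20 step (log2, bars ± SE) for the 12 largest called rises (orange) and falls (blue) in DRF, with equality dashed. At the same clock hours (left) 11 of 12 rises and 12 of 12 falls had the same sign in NRF. There 51.9% of all genes lay above 0 and 48.1% below. At the same hours of fast (right) 9 of 12 rises and 11 of 12 falls had the opposite sign. There 50.4% of all genes lay above 0 and 49.6% below. Of all 47 called rises 22 lay above 0 over those hours, and of all 31 called falls 8 lay below.

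At the same hours of fast, the comparison with NRF ZT4 to ZT8 gave calls. The step of 64 genes was higher in DRF (0.532%) and that of 67 lower (0.557%). NRF itself had 33 genes called upwards (0.274%) and 30 downwards (0.25%) over those hours. Leaving out DRF ZT20 replicate 1 gave 83 (0.69%) and 74 (0.615%), 157 in all (1.31%), and the total of 131 fell to 77 without DRF ZT16 replicate 2 and to 83 without NRF ZT8 replicate 2. Of the 19 clock genes 12 differed, 3 higher (Npas2, Arntl and Nfil3) and 9 lower. Npas2 fell from 3.74 ± 1.41 to 0.585 ± 0.364 CPM over those hours in NRF while it rose in DRF, a difference of 2.76 (interval 2.31 to 3.21, adjusted p = 4.27e-12). Arntl went from 33.1 ± 11.2 to 12.2 ± 4.14 CPM in NRF (difference 2.36, adjusted p = 1.06e-06). Dbp rose there from 63.4 ± 35.4 to 179 ± 50.01 CPM and Per2 from 5.90 ± 5.13 to 18.4 ± 5.78, differences of -3.34 and -3.36 (adjusted p = 3.64e-06 and 1.48e-05). Per1, Ciart and Per3 differed by -3.35, -2.65 and -2.08, and Hlf, Nr1d2, Tef and Cry2 by -1.53, -0.98, -0.88 and -0.79, all with adjusted p under 0.05.

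Outside the clock list, Spon2 had the smallest p among higher steps, with NRF means of 6.58 ± 2.15 and 1.78 ± 1.00 CPM and a difference of 2.66 (adjusted p = 9.15e-07). Zhx2, a transcriptional repressor, Wsb1 and Ypel2 differed by 1.09, 1.89 and 1.26 (adjusted p = 4.17e-06, 7.87e-05 and 1.97e-04). Among lower steps stood Tspan4, a tetraspanin with decimal counts (-1.38, adjusted p = 1.25e-07), and Usp2, a rhythmic deubiquitinase (-1.60, adjusted p = 7.08e-05). Fbxo32 differed by 1.69 (interval 0.83 to 2.55, adjusted p = 0.0308), as NRF means went from 275 ± 79.9 to 210.5 ± 47.1 CPM. Arrdc2, at -3.48 (adjusted p = 0.00492), was the 1 alpha-arrestin list member called, where the step of 0.557% of all genes was lower. Slc7a8 and Glul differed by -1.10 and -1.23 (adjusted p = 0.0368 and 0.029). Not every named gene did: Dusp10, Tsc22d3 and Gadd45b differed by 1.39, -1.10 and 0.82 (adjusted p = 0.153, 0.125 and 0.639). Of the PPAR fasting targets 0 of 18 were called in this comparison, Pdk4 having steps of 1.35 in DRF and 1.34 in NRF. Of the 47 genes that rose in DRF 22 had an NRF ZT4 to ZT8 step above 0, beside 50.4% of all genes, and of the 31 that fell 8 had one below 0, beside 49.6%.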

How the data were processed

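RNA of 56 gastrocnemius libraries was selected on oligo(dT) beads, copied from random hexamers and read as paired ends of 100 bases, per the labels' protocols, with no step named that marks strand. HISAT2, Bowtie2 and RSEM, and the builds mm10 and GRCm38.p6, stand without roles in the submitters' processing notes. The table the authors deposited is headed TPM but holds a score. Its values follow K × log2(1 + 1000000 × c / N) / L, with c an estimated read count, N a library size, L a gene length and K a scale that sets the column total at 1000000. The formula was inverted gene by gene, with L chosen so that at least 90% of nonzero values came out whole to 0.02 reads (or, for decimal counts, to 0.1 of the second decimal). Counts were recovered for 17442 of 19072 genes, of which 2004 had decimal counts. Library sizes N were 0.854 to 1.21 times the recovered totals of 28172991 to 36183392 reads; how the authors derived N was not stated.

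CPM are c per 1000000 of N. Genes averaging 1 CPM or more (12024, 1396 with decimal counts) were fitted as log2(CPM + 1) with limma 3.58.1 (lmFit, eBayes with a trend) in R 4.3.3 over all 56 libraries in 14 groups, with Benjamini-Hochberg adjustment and a threshold of 0.05. Differences between steps are contrasts in that fit. Symbols and coordinates came from RefSeq on GRCm38.p6, where 18955 IDs had a symbol and 75 of the 88 genes tabulated had a promoter entry.

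Genes named are the 12 largest called rises and falls whose groups did not overlap, the 6 smallest p in each direction of each difference test, all core clock genes, and up to 4 members a list by p. A few genes under this rule are not reported here. Promoter windows used RefSeq starts and GENCODE untranslated regions. Cirbp and Rbm3 are named as the best known members of their list and were chosen after their values were seen. Members, gene lists and tests were chosen with earlier results of these data known. Alternatives were other scalings, pseudocounts, filters, fits and leaving out each library.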

Additional observations from a re-analysis of the deposited data

Results flagged for a closer look

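Among 176 groups of 4 values examined (88 genes at DRF ZT16 and ZT20), 13 held a library whose gap to the nearest other, as a share of the group's range, passed Dixon's 95% critical value, where chance alone gives about 1 in 20. At ZT20 replicate 1 lay below the other 3 in Srsf5 (52.7 against 93.5 to 105 CPM), Clock (19.5 against 37.0 to 40.0), Rora (47.4 against 116 to 124), Thrsp (13.8 against 22.1 to 23.2) and Ddx5 (231.6 against 371 to 377), and above them in Tspan4 (10.5 against 8.40 to 8.66). Replicate 2 was high in Tef (361.5 against 297 to 305) and replicate 4 in Trim63 (698.5 against 353 to 396). At ZT16 replicate 4 was low in Zhx2 (37.1 against 44.1 to 45.6) and high in Ddx5 (317 against 252 to 262). Replicate 3 was high in Pfkfb3 (279 against 79.8 to 91.6) and in Slc43a1 (29.4 against 18.5 to 19.6), and replicate 2 in Myh7 (1119 against 232 to 289). Values are CPM.

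Of the 88 genes tabulated, 33 had a DRF step that differed from the NRF step over the same hours of fast. The threshold was an adjusted p under 0.05 by limma's contrast, which 131 of all 12024 genes passed (1.09%). Many of the 88 were tabulated for their p in this test or for their DRF step, so nothing is read from the 33. Higher in DRF were Npas2 (2.76), Spon2 (2.66), Arntl (2.36), Wsb1 (1.89), Fbxo32 (1.69), Nfil3 (1.41), Mc5r (1.31), Ypel2 (1.26), Efhd1 (1.19), Zhx2 (1.09) and Ccdc69 (0.96), on the log2 scale. Lower in DRF were Arrdc2 (-3.48), Per2 (-3.36), Per1 (-3.35), Dbp (-3.34), Ciart (-2.65), Per3 (-2.08), Dusp7 (-1.84), Adora1 (-1.74) and Usp2 (-1.60). Smaller differences were those of Hlf (-1.53), Ccbe1 (-1.39), Noct (-1.39), Tspan4 (-1.38), Ppp1r10 (-1.36), Gdf10 (-1.29), Ip6k3 (-1.28), Glul (-1.23), Slc7a8 (-1.10), Usp54 (-1.09), Nr1d2 (-0.98), Tef (-0.88) and Cry2 (-0.79).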

How the results depend on the processing

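The 47 rises and 31 falls became 24 and 21 with total-count scaling, 4 and 2 with only the 8 libraries compared, and 377 and 245 with library weights. Leaving out 1 library gave 20 to 217 rises and 10 to 142 falls. The 0 genes that differed from NRF at the same clock hours became 2 with library weights and 0 to 31 with a library left out. The 131 that differed at the same hours of fast became 48 with only the libraries compared and 77 to 157 with a library left out. Quantile scaling, the deposited score on a log2 scale, a pseudocount of 0.25, no filter, a mean CPM of at least 5, removal of a gene-length trend and a robust prior kept all 4 counts within 1.5 times. Of the called genes named, Fbxo32, Spon2, Gadd45b, Per2, Foxo6, Gdf10, Zhx2 and Nr1d2 were not called on the log2 scale of the deposited score (adjusted p = 0.0693, 0.079, 0.0693, 0.248, 0.0682, 0.163, 0.0693 and 0.0525). Socs3, Tmem140, Efhd1, Gdf10, Ccbe1, Tspan4 and Nr1d2 were not called with total-count scaling (0.108, 0.0593, 0.143, 0.109, 0.0703, 0.0593 and 0.0588). Among the genes named, no called step changed sign under any alternative run. Where the groups did not overlap, leaving out a library could not change the sign. The cause of these shifts was not tested.

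A replicate block gave 44 rises and 32 falls, 0 and 124 differences. Deviations of same-numbered libraries correlated at r from -0.341 to 0.345 over the 4 DRF pairs, none of them best with its own number. Whether same-numbered libraries share more than a number cannot be told from so few pairs, and the labels do not say.

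With 4 libraries a group, the steps of widely spread genes such as Angptl4, Pdk4 and Myh7 could not be told from 0.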
